A study of Mus musculus with 8 samples.

Results

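The 8 genes described here, Bcl2, Bcl2l1, Bcl2a1b, Bcl2a1d, Mcl1, Bcl2l11, Bbc3 and Bax, are members of the Bcl2 family, the proteins that decide whether a cell survives or dies through its mitochondria. They were taken by symbol from the 32285 genes of the count tables by a rule that uses no measured value, though the set was chosen with earlier results of these data known, and all 8 passed the filter on low counts in every comparison. T cells came from the bone marrow of C57BL/6 mice in 2 groups of 2 pools, and each pool mixed the marrow of 2 mice. Mice of the Runx1::Runx1t1 group carried a heterozygous conditional knock-in of the fusion gene and the Mx1-Cre transgene (Runx1Runx1t1/+; Mx1-Cre), whose promoter answers to interferon in many cell types. Mice of the control group, whose genotype label is WT, were littermates of the same sex that carried the knock-in allele without Mx1-Cre. All mice were given Poly(I:C), an RNA analog that induces interferon, in 4 injections of 5 mg/kg, and marrow was taken 4 weeks after induction. The age of the mice is not given in the sources used here. Live CD3+ cells without mCherry, the reporter of the fusion, were sorted in both groups, so that the T cells compared are cells without the reporter.

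Single-cell RNA-seq of the 4 pools (10x 5′ libraries) gave between 90958101 and 102883449 UMIs per library, where a UMI (unique molecular identifier) counts a captured RNA molecule once. After filtering, 53088 cells were kept, of which 48344 carried T cell receptor complex RNA and 46497 fell into 7 classes. The classes were set by UMIs of marker genes, none of which is a member: Cd8 naive, Cd8 memory, Cd8 effector and Cd8 Pdcd1 cells, Cd4 Foxp3 cells, other Cd4 cells, and cells with no Cd4, Cd8a or Cd8b1 UMI (co-receptor-negative). Among cells with Cd8a or Cd8b1 and no Cd4, 1 UMI of Pdcd1 put a cell in the Pdcd1 class, else 2 UMIs over Klrg1, Cx3cr1, Gzma and Gzmb in the effector class, else 2 over Ccl5, Cxcr3, Il2rb, Eomes and Gzmk in the memory class, and else 2 over a naive gene list that held Ccr7 and Lef1 in the naive class. Among cells with Cd4 and no Cd8 UMI, 1 UMI of Foxp3 set the Foxp3 class. Markers that the gates did not use followed the names. Cd44 was at 77.2 to 93.0 CPM in the memory class and 10.5 to 13.4 in the naive class. The summed level of Tcf7, Il7r, Satb1 and Igfbp4 was 1454 to 1721 CPM in the naive class and 84.0 to 1090 in the other Cd8 classes, that of Lag3, Tox, Tigit and Havcr2 was 435 to 1732 in the Pdcd1 class and 58.3 to 76.4 in the naive class (132.7 to 744 in effector and 236 to 777 in other Cd4 cells, which reach above the control pools of the Pdcd1 class at 435 and 457), and that of Il2ra, Ikzf2 and Ctla4 was 1069 to 1769 in the Foxp3 class and 288 to 471 in the other Cd4 cells. Between 229 and 264 cell barcodes were shared by any pair of libraries (1.79% to 1.96% of the smaller one). Runx1t1 RNA was low in the T cells, with 40 and 55 UMIs in the Runx1::Runx1t1 pools against 12 and 26 in the control pools. The 5′ end of the fusion transcript lies in Runx1, so that this count does not check the labels.

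Bcl2, Bcl-xL (encoded by Bcl2l1), Mcl-1 and the A1 proteins (Bcl2a1b and Bcl2a1d) keep the cell alive by holding back Bax and Bak, which open the outer mitochondrial membrane. The BH3-only proteins Bim (Bcl2l11) and Puma (Bbc3) oppose them by binding the protective members. In T cells, signals of the Il7 receptor are known to sustain Bcl2, signals of the antigen receptor and NF-kB to induce A1 and Bcl-xL, and loss of growth factors to raise Bim, while p53 is the best known inducer of Puma.

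The gene pair that differed most between the classes, Bcl2a1b and Bcl2a1d, comes from a local duplication. Bcl2a1b (ENSMUSG00000089929) lies on the plus strand at chr9:89199209-89207827 and Bcl2a1d (ENSMUSG00000099974) on the minus strand at chr9:88723285-88731914 (GRCm38). All 8 members had an entry in RefSeq's table of promoter windows (GRCm38.p6, from 250 bases before to 50 after a start), with 13 windows in all. The stretch just upstream of both A1 genes is shown because both genes rose over naive Cd8 cells in each of the other Cd8 classes. In Foxp3 cells both were lower than in other Cd4 cells in every pool, and only the fall of Bcl2a1d passed. Capitals mark the bases at which they differ.
Bcl2a1b (plus strand, chr9:89199023-89199164): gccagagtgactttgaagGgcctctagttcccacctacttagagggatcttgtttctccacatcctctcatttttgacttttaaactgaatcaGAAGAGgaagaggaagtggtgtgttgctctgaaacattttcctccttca
Bcl2a1d (minus strand, chr9:88731915-88732050): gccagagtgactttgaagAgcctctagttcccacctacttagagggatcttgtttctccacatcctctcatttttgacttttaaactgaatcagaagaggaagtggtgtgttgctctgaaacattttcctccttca
Of 142 aligned positions, 135 were identical, 1 was a mismatch and 6 were a stretch present in Bcl2a1b alone. The letters TGANTCA, a loose form of the AP-1 site that reads the same on both strands, were found in 2 of the 13 member windows, those of Bcl2a1b and Bcl2a1d, and in 7.81% of the 32851 mouse windows. In both printed stretches the match reads tgaatca, and the usual AP-1 core has C or G at its middle base. For NF-kB only a narrow form of the site was searched, on both strands, with every base fixed apart from its middle base. That form was in 0 of the 13 and in 0.411% of all. Looser forms of the site were not searched, so that their presence in the member windows is not known. The transcripts are alike too: 223 of the 718 windows of 100 bases in the Bcl2a1b transcript (31.1%) and 418 of 764 in that of Bcl2a1d (54.7%) are also found in another Bcl2a1 transcript. Of the first 100 windows, at the 5′ end that these libraries read, 19 of Bcl2a1b and 43 of Bcl2a1d were shared. How the counting treated reads from shared stretches is not given in the sources used here. The division of UMIs between the copies is therefore uncertain, and the values of both genes are given beside each other throughout.

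Levels are given as CPM, the UMIs of a gene in a class of a pool scaled to a common total, on the same scale as the fitted changes. As 5′ UMI counts follow no gene length, levels are compared between classes and groups and not between genes. Values of the 4 pools are listed in the order Runx1::Runx1t1 replicate 1, Runx1::Runx1t1 replicate 2, control replicate 1 and control replicate 2. Differences between classes were tested with edgeR's quasi-likelihood test on 28 sums (7 classes in 4 pools, with the pool as a block), and p-values were adjusted over the 11799 genes tested. Cells of a pool share their mice, and the classes were cut from the same expression data, so that these p-values describe how far apart the classes lie. The memory, effector, Pdcd1 and co-receptor-negative comparisons share the naive sums.

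**Figure D1:**
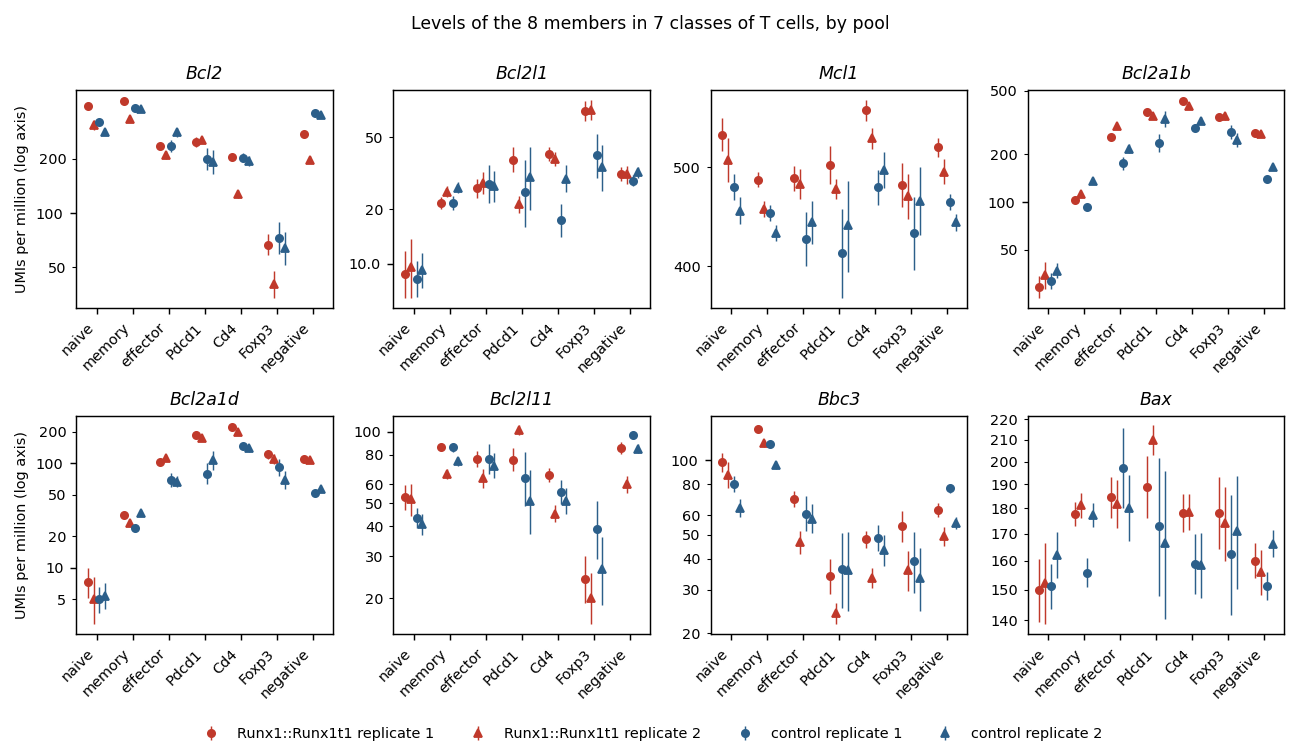
Levels of the 8 genes in 7 classes of T cells, in CPM on a log axis, with 1 point per pool (red, Runx1::Runx1t1; blue, control; circles, replicate 1; triangles, replicate 2) and exact Poisson intervals at 95% that cover counting error only. Bcl2a1d ranges from 5.00 in a naive sum to 219.9 in a sum of other Cd4 cells, while all sums of Mcl1 lie between 412 and 568.

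Of the 32 member tests against naive Cd8 cells 25 passed, and of all 48 tests between classes 33 passed. In memory cells 6 of the 8 passed, all higher, against 31.6% of all genes. In effector cells 7 passed (5 higher, 2 lower) against 51.2%, and in Pdcd1 cells 7 passed (5 higher, 2 lower) against 56.2%. The median change of the members was 0.65, 0.48 and 0.58 on the log2 scale in the 3 comparisons, and that of all genes was 0.01, 0.01 and 0.02. Co-receptor-negative cells differed from naive Cd8 cells in 5 members (4 higher, 1 lower) against 51.0%. Between the Pdcd1 and effector classes 3 members passed (2 higher, 1 lower) against 16.0%, and between Foxp3 and other Cd4 cells 5 passed (1 higher, 4 lower) against 23.5%. The share of members called was nearest to that of all genes in the co-receptor-negative comparison.

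**Figure D2:**
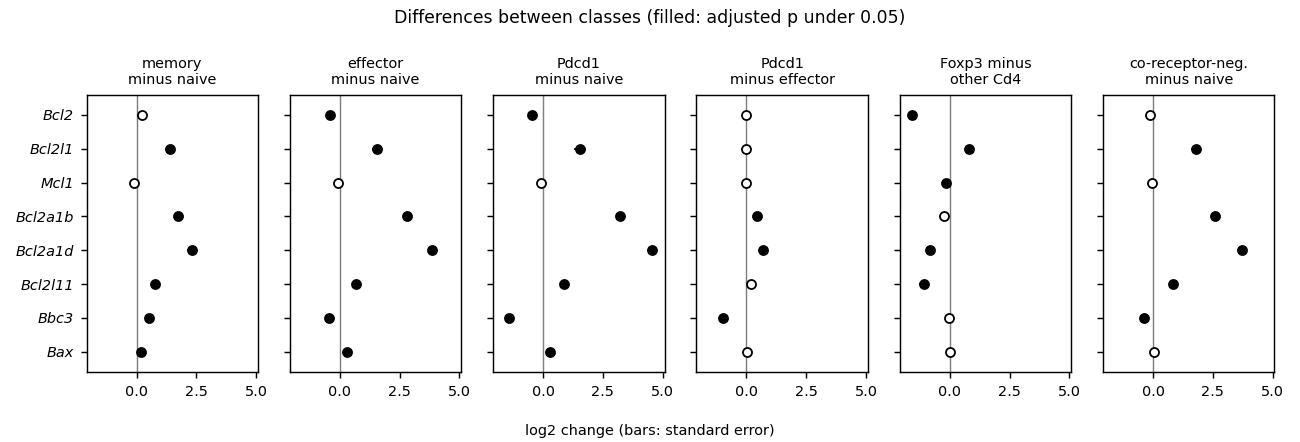
Fitted log2 changes of the 8 genes in the 6 comparisons between classes, with standard errors as bars and 1 common axis. Filled points passed at the threshold of 0.05 and open points did not. Bcl2a1d and Bcl2a1b lie farthest to the right in the 4 comparisons with naive Cd8 cells, at 1.72 to 4.55, and Bcl2 lies farthest to the left in Foxp3 cells, at -1.60.

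The A1 genes, which protect activated lymphocytes, were lowest in naive cells and rose in memory, effector and Pdcd1 Cd8 cells. Bcl2a1d was at 7.28, 5.09, 5.00 and 5.44 CPM in naive cells, 31.9, 26.7, 24.0 and 33.7 in memory cells, 101, 111, 69.4 and 66.5 in effector cells and 187, 174, 79.3 and 107 in Pdcd1 cells. Bcl2a1b was at 29.3, 34.7, 32.0 and 37.1 in naive cells, 104, 112, 93.3 and 136 in memory cells, 258, 298, 175 and 217 in effector cells and 367, 348, 236 and 333 in Pdcd1 cells. No naive pool overlapped a pool of another class for either gene. The log2 change of Bcl2a1d over naive cells was 2.33 (SE 0.20, adjusted p = 3.81e-09) in memory, 3.87 (SE 0.20, adjusted p = 1.46e-13) in effector and 4.55 (SE 0.20, adjusted p = 1.66e-14) in Pdcd1 cells, the last a 23.4-fold higher level. Bcl2a1b rose by 1.72 (SE 0.15, adjusted p = 2.42e-09), 2.80 (SE 0.15, adjusted p = 2.78e-13) and 3.23 (SE 0.15, adjusted p = 5.83e-14), which is 3.30-fold, 6.96-fold and 9.39-fold. All of these changes were seen in 4 of 4 pools and kept their call under each alternative.

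The step from effector to Pdcd1 cells was smaller for both genes. Bcl2a1d rose by 0.67 (SE 0.15, adjusted p = 0.00391) and Bcl2a1b by 0.43 (SE 0.14, adjusted p = 0.0338), in 4 of 4 pools. Bcl2a1d no longer passed without Runx1::Runx1t1 replicate 1 (0.58) or without the pool block (0.70). Bcl2a1b no longer passed without any single pool (0.39 to 0.53), nor in 5 other settings (0.29 to 0.44). The highest A1 levels of all were in the other Cd4 cells, at 219.9, 197, 146 and 139 for Bcl2a1d and 429, 403, 293 and 324 for Bcl2a1b. Their ranges overlapped those of the Pdcd1 class for both genes. Foxp3 cells had less Bcl2a1d than other Cd4 cells, at 122, 109, 91.1 and 69.5, a fall of 0.85 (SE 0.15, adjusted p = 1.59e-04) in 4 of 4 pools, and Bcl2a1b was at 342, 347, 275 and 245 (log2 change -0.26, SE 0.13, adjusted p = 0.183). Co-receptor-negative cells lay between memory and effector cells in their means, 80.9 ± 31.3 for Bcl2a1d and 210.5 ± 68.1 for Bcl2a1b (SD, n = 4 pools), and exceeded naive cells by 3.72 (SE 0.19, adjusted p = 1.52e-13) and 2.60 (SE 0.15, adjusted p = 6.19e-13).

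Within the Cd4 cells the same contrast between resting and experienced cells was seen. Other Cd4 cells that met the naive gate had 38.3, 19.3, 33.0 and 47.2 CPM of Bcl2a1d against 236, 211, 168 and 158 in the rest. For Bcl2a1b the levels were 98.3, 61.1, 80.8 and 144 against 458, 429.6, 335 and 362. The pools did not overlap for either gene, and these splits were not tested.

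Bcl2l1 lies on the minus strand at chr2:152780668-152831728 (ENSMUSG00000007659). Its product, Bcl-xL, guards Bax and Bak at the mitochondrion and is induced on activation. In naive Cd8 cells it was at 8.81, 9.55, 8.27 and 9.22 CPM, and every pool of the other 6 classes was higher. The log2 change over naive cells was 1.41 in memory (SE 0.20, adjusted p = 6.64e-06), 1.57 in effector (SE 0.22, adjusted p = 2.35e-06), 1.54 in Pdcd1 (SE 0.24, adjusted p = 7.19e-06) and 1.79 in co-receptor-negative cells (SE 0.20, adjusted p = 5.7e-08). The differentiated classes were close, with means of 23.7 ± 2.33 in memory, 27.1 ± 0.85 in effector and 28.6 ± 7.07 in Pdcd1 cells (SD, n = 4 pools), and the change from effector to Pdcd1 cells was -0.03 (SE 0.21). Gates on cells thinned to a common 2000 UMIs lowered the change in effector cells to 1.04, still past the threshold. Foxp3 cells were the class with the highest Bcl2l1, at 70.0, 71.0, 39.9 and 34.0, and exceeded the other Cd4 cells (40.3, 38.0, 17.3 and 29.5) by 0.82 (SE 0.18, adjusted p = 0.00175) in 4 of 4 pools.

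Bcl2, on the minus strand at chr1:106538178-106714274 (ENSMUSG00000057329), is the survival factor of resting lymphocytes and of memory cells. It was lower in effector and Pdcd1 than in naive cells, where the A1 genes were higher, and it was not lower in memory cells. Its levels were 395, 307, 320.0 and 281 CPM in naive cells, 419, 331, 383 and 379.6 in memory cells, 236, 209, 235 and 281 in effector cells and 247, 255, 200.3 and 193 in Pdcd1 cells. Naive and memory cells were close, with a change of 0.23 (SE 0.14, adjusted p = 0.204), although memory cells were higher in 4 of 4 pools. Bcl2 fell by 0.41 in effector cells (SE 0.14, adjusted p = 0.0166, 3 of 4 pools) and by 0.45 in Pdcd1 cells (SE 0.14, adjusted p = 0.0107, 4 of 4 pools), and the fourth pool, control replicate 2, was at 281 in both naive and effector cells. Neither fall passed throughout. Without Runx1::Runx1t1 replicate 1 the changes were -0.33 and -0.40, under scaling by library size alone -0.14 and -0.10, and none of these passed. Without the pool block the fall in effector cells was lost as well (-0.42), and with gates on thinned cells it was larger (-0.74).

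The clearest difference in Bcl2 was within Cd4 cells. Foxp3 cells had 66.7, 40.2, 73.0 and 63.9 CPM and other Cd4 cells 204, 127, 203 and 195. Bcl2 fell by 1.60 in Foxp3 cells (SE 0.17, adjusted p = 1.36e-07), to a level 3.03-fold lower, in 4 of 4 pools, and the call held in each alternative. In the order of class means, from 378 ± 36.2 in memory cells to 61.0 ± 14.3 in Foxp3 cells (SD, n = 4 pools), the step down to Foxp3 cells was the only one at which the pools of neighbouring classes did not overlap. Antisense genes overlap Bcl2 (D630008O14Rik) and Bcl2a1d (Gm10634) and are counted in the same tables, and whether the counting used strand is not given in the sources used here.

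Mcl1 (ENSMUSG00000038612, plus strand, chr3:95658788-95663176) encodes a short-lived protector that most T cells need. Its levels spanned a narrow range, with class means between 456 ± 22.8 in memory cells and 519 ± 40.2 in other Cd4 cells (SD, n = 4 pools), and every pair of neighbouring classes in this order overlapped. Its change from naive cells was -0.10 in memory (SE 0.04, adjusted p = 0.0648), -0.08 in effector (SE 0.04, adjusted p = 0.0961) and -0.09 in Pdcd1 cells (SE 0.04, adjusted p = 0.0588). DESeq2 called these 3 changes. The fall in memory cells also passed with stricter gates (-0.14), without expanded clonotypes (-0.12), with no doublet removal (-0.11) and with a memory gate without Ccl5 (-0.15). That in Pdcd1 cells passed in the same 4 settings (-0.14 to -0.10), with the stricter cell filter (-0.10) and without control replicate 2 (-0.13). On the scale of plain library size the mean level in Pdcd1 cells was higher than in naive cells, by 0.25 on the log2 scale, in place of lower. The only call in Mcl1 was a small fall of 0.17 in Foxp3 cells against other Cd4 cells (SE 0.04, adjusted p = 0.0035), which was lost without Runx1::Runx1t1 replicate 1 (-0.14), without the pool block (-0.17), with gates on thinned cells (-0.13) and under library-size scaling (-0.12).

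Of the BH3-only genes, Bcl2l11 (ENSMUSG00000027381, plus strand, chr2:128126038-128162547) encodes Bim, which brings about the death of T cells after activation or loss of cytokines. Its levels were 53.1, 51.9, 43.3 and 40.8 CPM in naive cells, 86.3, 66.4, 85.8 and 75.0 in memory cells, 76.8, 63.7, 77.0 and 72.0 in effector cells and 76.2, 101, 63.6 and 51.2 in Pdcd1 cells. It was higher than in naive cells in all 3 differentiated Cd8 classes, by 0.77 (SE 0.14, adjusted p = 1.82e-04), 0.66 (SE 0.15, adjusted p = 8.57e-04) and 0.85 (SE 0.16, adjusted p = 8.61e-05), each in 4 of 4 pools. The rise in effector cells was lost with gates on thinned cells (0.40), and that in Pdcd1 cells shrank to 0.56 without Runx1::Runx1t1 replicate 2 and still passed. Co-receptor-negative cells had the highest class mean, 81.7 ± 15.5 (SD, n = 4 pools), and overlapped memory cells. Their rise over naive cells passed, with log2 differences of 0.68, 0.21, 1.16 and 1.05 within the pools. In Foxp3 cells Bcl2l11 was at 24.1, 20.1, 39.1 and 26.4, below every pool of every other class. Against other Cd4 cells it fell by 1.08 (SE 0.20, adjusted p = 1.9e-04), so that Foxp3 cells had less of both Bcl2 and its antagonist.

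Bbc3, at chr7:16308393-16318205 on the plus strand (ENSMUSG00000002083), encodes Puma, the p53-induced BH3-only protein. It parted from Bcl2l11: memory cells had the highest level, at 134, 117, 117 and 95.5 CPM, naive cells had 98.1, 87.2, 80.3 and 64.2, effector cells 70.0, 46.7, 61.0 and 58.2, and Pdcd1 cells 34.1, 24.1, 36.5 and 36.1. Pdcd1 cells lay below the naive, memory and effector cells in every pool, with no overlap. Bbc3 rose by 0.53 in memory cells (SE 0.11, adjusted p = 3.63e-04) and fell by 0.44 in effector (SE 0.12, adjusted p = 0.00265) and 1.43 in Pdcd1 cells (SE 0.14, adjusted p = 5.89e-09), the last a 2.69-fold lower level. From effector to Pdcd1 cells it fell by a further 0.99 (SE 0.14, adjusted p = 8.5e-05), in 4 of 4 pools. The low level in Pdcd1 cells passed under each alternative. The rise in memory cells was lost with gates on thinned cells (0.22), and the fall in effector cells was lost under library-size scaling (-0.17) but grew with thinned (-1.17) and stricter gates (-0.76). Co-receptor-negative cells were below naive cells by 0.39 (SE 0.11, adjusted p = 0.00427), a call that ended without Runx1::Runx1t1 replicate 1 (-0.33) and under library-size scaling (-0.12).

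Bax, at chr7:45461697-45466898 on the minus strand (ENSMUSG00000003873), forms the pore itself. Its class means spanned only 154 ± 5.65 in naive to 186 ± 7.70 in effector cells (SD, n = 4 pools). The change over naive cells was 0.18 in memory (SE 0.06, adjusted p = 0.0181), 0.29 in effector (SE 0.06, adjusted p = 2.44e-04) and 0.30 in Pdcd1 cells (SE 0.06, adjusted p = 2.6e-04). Effector and Pdcd1 cells kept their calls throughout, with larger changes (0.56 and 0.65) under library-size scaling. The change in memory cells did not pass without Runx1::Runx1t1 replicate 1 (0.14), Runx1::Runx1t1 replicate 2 (0.14) or control replicate 2 (0.18), or with gates on thinned cells (0.15).

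Scaling bears on the small changes. Without TMM factors the median change of all genes moved to 0.29 in effector, 0.38 in Pdcd1 and 0.28 in co-receptor-negative cells against naive cells, and the split of all calls moved with it, from 3224 higher and 2820 lower to 5619 and 1234 in effector cells, from 3495 and 3140 to 6333 and 1450 in Pdcd1 cells and from 3202 and 2817 to 5860 and 1074 in co-receptor-negative cells. In the other comparisons between classes the splits moved from 2187 and 1537 to 2780 and 1004 (memory and naive), from 871 and 1013 to 1354 and 652 (Pdcd1 and effector) and from 1477 and 1297 to 1765 and 1009 (Foxp3 and other Cd4). The calls in Bcl2a1b, Bcl2a1d, Bcl2l1, Bcl2l11 and Bax passed in the same direction on both scales, while 5 falls in Bcl2, Bbc3 and Mcl1, named above, did not pass on the second.

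The share of cells with at least 1 UMI showed how the levels were spread over cells, after each cell was thinned to 2000 UMIs. The median depth before thinning was 6109 to 6540 UMIs in naive and 5118 to 6325 in Pdcd1 cells, and 1 to 31 cells of these classes per pool were left out as too shallow. Bcl2a1b was seen in 4.72% to 5.98% of naive and 35.2% to 53.4% of Pdcd1 cells, and Bcl2a1d in 0.89% to 1.95% and 17.6% to 30.1%. Mcl1 was seen in 50.0% to 68.1% of cells whatever the class. Bcl2 was seen in 38.5% to 47.9% of naive cells and in 8.19% to 12.7% of Foxp3 cells. The sort holds no cell type that is known to lack these genes, so that the share set by free RNA could not be read off.

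**Figure D3:**
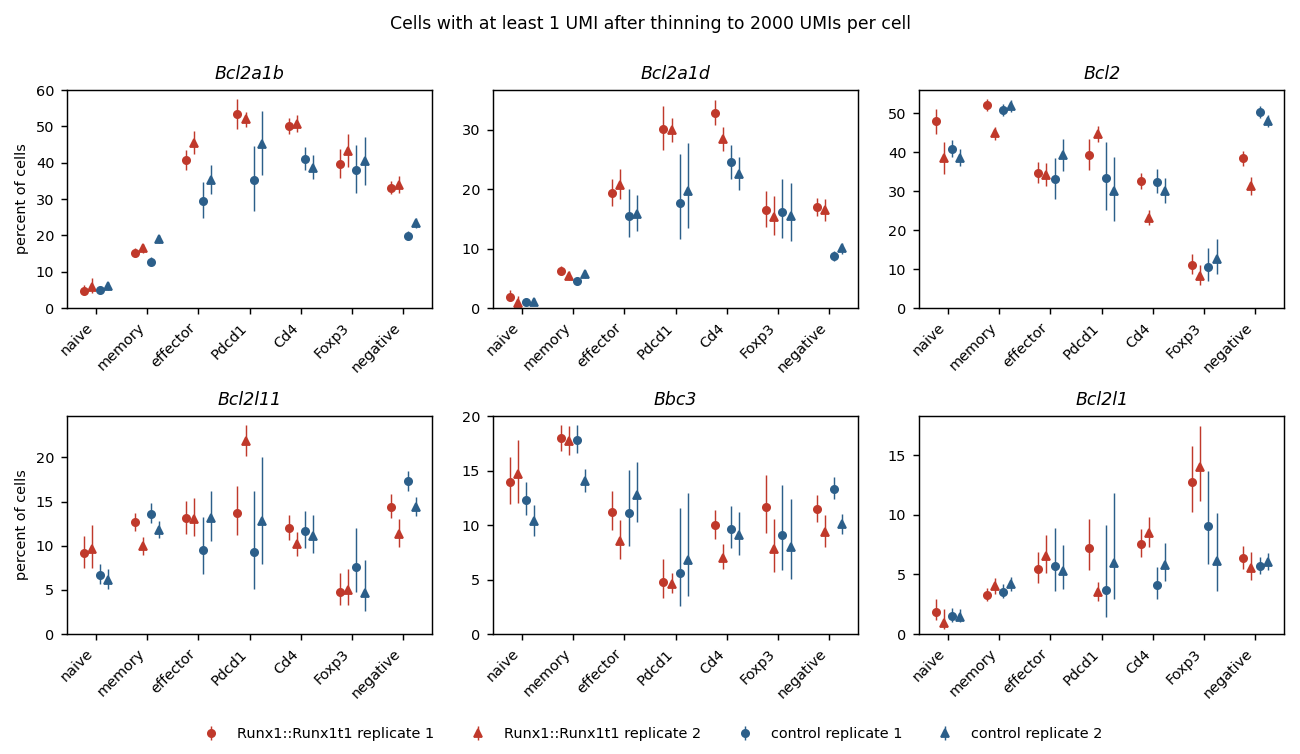
Percent of cells with at least 1 UMI of 6 of the genes after thinning to 2000 UMIs per cell, by class and pool, with Wilson intervals at 95% that cover counting error only. The share for Bcl2a1b climbs from at most 5.98% in naive cells to at least 35.2% in Pdcd1 cells, and the share for Bcl2 is lowest in Foxp3 cells, at 8.19% to 12.7%.

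Bcl2 and Bim are direct opponents, and the ratio of their UMIs was compared between classes. It was 7.44, 5.91, 7.39 and 6.89 in naive cells and 4.85, 4.98, 4.46 and 5.06 in memory cells, and it lay between 3.06 and 3.90 in effector, 2.53 and 3.77 in Pdcd1, 2.81 and 3.79 in other Cd4 and 3.23 and 4.12 in co-receptor-negative cells. Of the 7 classes, the naive pools stood above all others, the memory pools above all but the naive ones, and Foxp3 cells had the lowest pool, at 1.87. The ratio of Bcl2a1b to Bcl2a1d also fell with differentiation, from 4.03, 6.81, 6.39 and 6.82 in naive cells to 1.96, 2.00, 2.97 and 3.11 in Pdcd1 cells. These ratios were not tested.

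**Figure D4:**
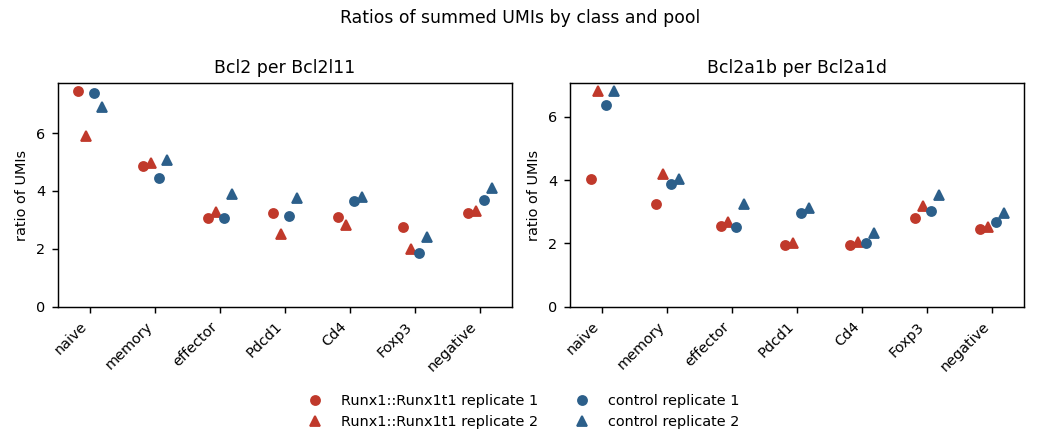
Ratio of summed UMIs of Bcl2 to Bcl2l11 (left) and of Bcl2a1b to Bcl2a1d (right) in each class, with 1 point per pool. The Bcl2 to Bcl2l11 ratio is 5.91 to 7.44 in naive cells and at most 5.06 elsewhere, and in Pdcd1 cells the Bcl2a1b to Bcl2a1d ratio is 1.96 and 2.00 in the Runx1::Runx1t1 pools and 2.97 and 3.11 in the control pools.

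Other genes of the pathway were read from 3 lists: 11 further Bcl2 family genes, 10 genes of the mitochondrial machinery of apoptosis and 9 upstream regulators. Against naive cells, 2 of the 8 tested family genes rose in memory, 3 in effector and 4 in Pdcd1 cells. The medians over the list were 0.28, 0.68 and 0.96. Of all genes, 31.6%, 51.2% and 56.2% were called in these comparisons, in either direction. The filter on low counts kept genes with enough UMIs in the sums of 1 class. In the fit of naive cells alone 5 of the 11 family genes passed it. Some family genes could thus be tested with few UMIs in naive cells, and the sizes of their changes are uncertain. Bak1, the partner of Bax, rose by 0.35 in memory (SE 0.07, adjusted p = 8.66e-04) and Bid, a BH3-only protein cut by caspases, by 0.45 (SE 0.12, adjusted p = 0.00719). In effector cells Bak1 rose by 0.75 (SE 0.08, adjusted p = 3.78e-08) and Pmaip1, which encodes the BH3-only protein Noxa, by 0.99 (SE 0.16, adjusted p = 1.41e-05). In Pdcd1 cells the largest were Pmaip1, at 1.09 (SE 0.17, adjusted p = 6.53e-06), and Bcl2a1a, a further A1 copy, at 2.88 (SE 0.99, adjusted p = 0.0161). Bcl2a1a no longer passed without Runx1::Runx1t1 replicate 1 (2.10) or with stricter gates (2.61). Of the machinery genes 2, 5 and 5 rose, and in Pdcd1 cells Vdac2 fell by 0.14 (SE 0.06, adjusted p = 0.0454). Cycs, the cytochrome c gene, was among those that rose in memory (0.23, SE 0.06). The call in Cycs ended without Runx1::Runx1t1 replicate 1 (0.21) or control replicate 2 (0.21) and with gates on thinned cells (0.18). That in Vdac2 ended without Runx1::Runx1t1 replicate 2 (-0.16), control replicate 1 (-0.14) or control replicate 2 (-0.11), with no filter on low counts (-0.13) and without the pool block (-0.13), and its change turned to 0.21 under library-size scaling.

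The upstream regulators moved down. Of 9, 3 fell in memory, 7 in effector and 7 in Pdcd1 cells, where 31.6%, 51.2% and 56.2% of all genes were called. The medians over the list were -0.21, -0.78 and -0.94 beside 0.01, 0.01 and 0.02 over all genes. Under library-size scaling Rel (-0.10 and -0.19) and Trp53 (-0.07 and -0.08) did not pass in effector and Pdcd1 cells. Rel in effector cells also did not pass without Runx1::Runx1t1 replicate 1 (-0.38) or control replicate 1 (-0.33). Stat5b and Foxo1 fell most in memory cells, by 0.69 (SE 0.09, adjusted p = 3.31e-06) and 0.50 (SE 0.08, adjusted p = 2.28e-05). Il7r, the receptor chain that supports Bcl2, fell by 1.77 (SE 0.29, adjusted p = 2.07e-05) in effector and 2.26 (SE 0.33, adjusted p = 2.74e-06) in Pdcd1 cells. The next largest were Stat5b in effector cells, which fell by 1.08 (SE 0.11, adjusted p = 7.15e-09), and Myc in Pdcd1 cells, which fell by 1.53 (SE 0.22, adjusted p = 3.27e-06). Between effector and Pdcd1 cells 2 of 10 machinery genes rose, and 16.0% of all genes were called. Among the 2 was Apaf1, the core of the apoptosome, which rose by 0.39 (SE 0.13, adjusted p = 0.0481). The Apaf1 call ended without Runx1::Runx1t1 replicate 1 (0.38), Runx1::Runx1t1 replicate 2 (0.45) or control replicate 2 (0.34), with gates on thinned cells (0.20) and in 5 other settings (0.30 to 0.42).

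In Foxp3 cells the regulators moved up, but the baseline there was other Cd4 cells and not naive Cd8 cells. Against other Cd4 cells 5 of 9 rose, and 23.5% of all genes were called. The largest rises were in Stat5a at 0.66 (SE 0.12, adjusted p = 3.33e-04) and Rel, an NF-kB subunit, at 0.60 (SE 0.13, adjusted p = 0.00101). Of the family genes 5 of 8 rose, led by Bcl2l2 at 1.44 (SE 0.47, adjusted p = 0.0265) and Pmaip1 at 0.80 (SE 0.15, adjusted p = 2.87e-04). Of the machinery genes 3 of 10 rose, among them Casp6 at 0.51 (SE 0.10, adjusted p = 9.09e-04). With gates on thinned cells neither Stat5a (0.32) nor Casp6 (0.20) passed. Without Runx1::Runx1t1 replicate 1 neither Rel (0.48) nor Bcl2l2 (1.54) passed, and Bcl2l2 also failed without control replicate 1 (1.14) or 2 (1.37) or with no doublet removal (1.25). The medians of the 3 lists were 0.31, 0.29 and 0.18, against -0.01 over all genes. In co-receptor-negative cells against naive Cd8 cells 5 of 8 family genes rose, with a list median of 0.49, and 51.0% of all genes were called. The largest were Bcl2a1a at 5.53 (SE 0.64, adjusted p = 1.09e-07) and Bik at 1.70 (SE 0.24, adjusted p = 2.11e-06). In fits within a class, 8 family genes passed the filter in co-receptor-negative cells and 5 in naive cells, so that the sizes of such changes are uncertain. There 4 machinery genes rose and 1 fell (Vdac2 at -0.26, SE 0.05), with a median of 0.19. Vdac2 was at 0.013 under library-size scaling. Nfkb1 rose by 0.33 (SE 0.07) while 5 regulators fell, Myc by 0.86 (SE 0.18) and Foxo1 by 0.75 (SE 0.08) most of all. The list's median was -0.44. Of those that fell, Stat5a did not pass under library-size scaling (-0.16) and Trp53 was at 0.022.

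As a description, the 3 genes most like each member were found by the Pearson correlation of log2 levels over the 28 sums, among 7493 genes and without the gate genes. The sums of a class share their cell type and the classes of a pool their library. Bcl2a1b and Bcl2a1d were nearest to each other (r = 0.987), and next to both were Casp1, the inflammasome caspase (r = 0.976 and 0.970), and Plscr1, an interferon-induced scramblase (r = 0.970 and 0.972). For Bcl2 the nearest were Pde3b, a cyclic nucleotide phosphodiesterase, Pik3r5 and B4galnt1 (r = 0.951, 0.938 and 0.928). Bcl2l1 was nearest to Ptprcap, Gbp7 and Syngr2 (r = 0.930, 0.920 and 0.915), and Bcl2l11 to Ctsw, a cathepsin of cytotoxic cells, Hcst and Prkacb (r = 0.911, 0.897 and 0.896). Bbc3 was nearest to Atp5g2, H2-Ke6 and mt-Nd1 (r = 0.903, 0.901 and 0.90). The 2 level genes had weaker neighbours, Btg1 and Siah2 for Mcl1 (r = 0.816 and 0.791) and Cenpw, Zbtb8os and Psma1 for Bax (r = 0.860, 0.845 and 0.842).

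The groups were then compared within each class, 2 pools against 2, with the same test and 1 fit per class. Of 56 member tests 6 passed. The pools mixed separate mice, littermates were split between the groups, and which pools shared a litter is not given in the sources used here. The p-values set the difference between the groups against the spread between these pools.

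**Figure D5:**
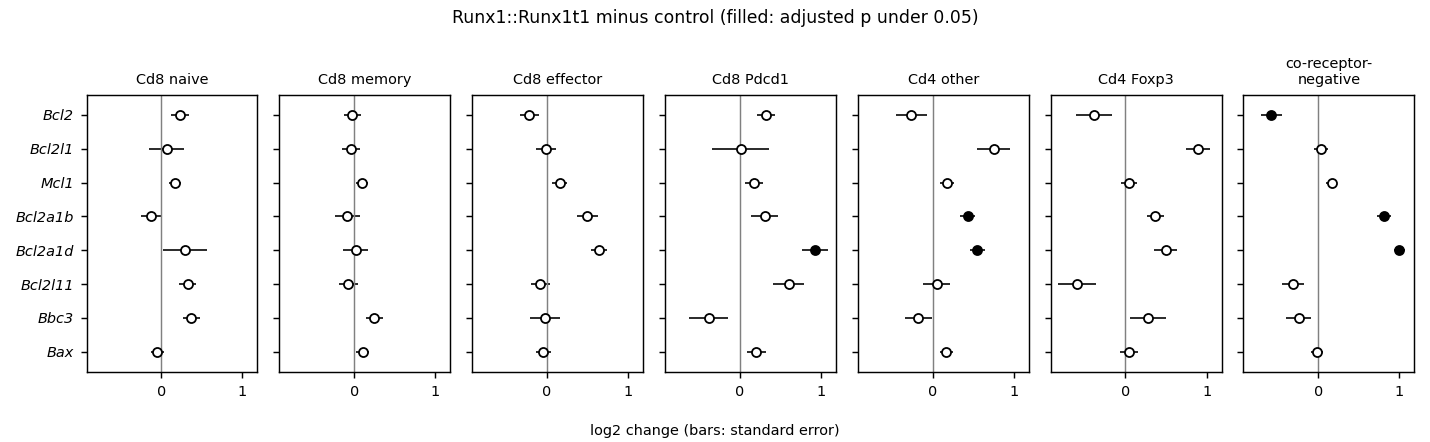
Fitted log2 changes of the 8 genes between the Runx1::Runx1t1 and control groups in each of the 7 classes, with standard errors as bars and 1 common axis. Filled points passed at the threshold of 0.05. Bcl2a1d is filled in Pdcd1, other Cd4 and co-receptor-negative cells (0.93, 0.55 and 1.0), Bcl2a1b in the last 2 of these, and Bcl2 to the left in co-receptor-negative cells (-0.58).

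Co-receptor-negative cells differed most, with 3 of the 8 members passing (2 higher, 1 lower) against 9.57% of all genes (737 higher and 434 lower, or 1135 and 297 under library-size scaling). Bcl2a1d was at 109.6 and 106 CPM in the Runx1::Runx1t1 pools against 51.8 and 56.0 in the control pools, and Bcl2a1b at 270.4 and 267 against 139 and 166. Both rose, by 1.0 (SE 0.07, adjusted p = 6.5e-05) and 0.81 (SE 0.09, adjusted p = 7.15e-04), and passed under each alternative. Bcl2 was at 275 and 197 against 358 and 348 and fell by 0.58 (SE 0.13, adjusted p = 0.0242). That fall did not pass without Runx1::Runx1t1 replicate 2 (-0.36), with DESeq2 (-0.58) or with gates on thinned cells (-0.54). The chronic stimulation list of Lag3, Tox, Tigit and Havcr2 summed to 242 and 258 CPM in the Runx1::Runx1t1 pools against 119.5 and 116 in the control pools. The other members that had an unadjusted p under 0.05 were Bcl2l11 (85.3 and 60.0 against 96.8 and 84.5) and Mcl1 (523 and 495 against 462 and 442), with adjusted p = 0.199 and 0.165.

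The class is set by the lack of a co-receptor UMI, so that T cells whose co-receptor RNA was not captured also fall into it. With gates on cells thinned to 2000 UMIs it grew from 2735 and 1622 to 4428 and 3160 cells in the Runx1::Runx1t1 pools. In the control pools it grew from 4430 and 4169 to 5563 and 5472. How many of its cells truly lack a co-receptor was not tested. The class is mixed, and its make-up differed between the groups. The natural killer markers Ncr1, Klrb1c and Tyrobp summed to 318 and 241 CPM in the Runx1::Runx1t1 pools against 604 and 581 in the control pools, Foxp3 was at 84.4 and 88.2 against 16.9 and 20.3, and the 6 neutrophil granule genes summed to 1.65 and 2.77 against 507 and 19.9. Their part in the result was not tested, but the members were also read in parts of the class. In cells with a Klrb1c UMI, Bcl2a1d was at 124 and 106 against 58.2 and 63.0 and Bcl2 at 326 and 278 against 384 and 389. In cells without one, Bcl2a1d was at 102 and 107 against 44.8 and 48.9 and Bcl2 at 248 and 171 against 331 and 306. In cells with Trdc, the constant region of the delta chain, Bcl2a1d was at 66.9 and 73.3 against 25.9 and 33.0 and Bcl2 at 286 and 214 against 348 and 327. The groups did not overlap in any of these parts, in the same directions as in the whole class. These splits were not tested, and how many other genes lay apart in the same way was not counted.

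In Pdcd1 cells 1 of 8 members passed against 3.75% of all genes. Bcl2a1d was at 187 and 174 CPM against 79.3 and 107 and rose by 0.93 (SE 0.16, adjusted p = 0.0274). The call was lost with gates on thinned cells (0.71), with stricter gates (0.55), without expanded clonotypes (0.77), without control replicate 1 (0.73) and without control replicate 2 (1.16). The control pools had 111 and 118 cells in this class against 601 and 2166, and the summed level of Lag3, Tox, Tigit and Havcr2 was 1456 and 1732 against 457 and 435, so that the gate held cells of unlike state in the 2 groups. Its part in the result was not tested. Bcl2 (247 and 255 against 200.3 and 193) and Bcl2l11 (76.2 and 101 against 63.6 and 51.2) were higher in both pools of the Runx1::Runx1t1 group, at 0.32 (SE 0.11, adjusted p = 0.16) and 0.60 (SE 0.19, adjusted p = 0.127), and did not pass. Without expanded clonotypes these values were 0.07 and 0.32. With stricter gates Bcl2 was at 0.60 and did not pass, while Bcl2l11 passed without Runx1::Runx1t1 replicate 1 (0.78) and with no filter on low counts (0.66) and was at 0.38 without Runx1::Runx1t1 replicate 2.

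A single clonotype made up 41.2% of the Pdcd1 cells of Runx1::Runx1t1 replicate 2, and the largest Cd8 clonotype of Runx1::Runx1t1 replicate 1 made up 14.8%. Its 1087 cells in all in replicate 2 had Bcl2 at 398, Bcl2l11 at 148, Bbc3 at 16.2, Bcl2a1b at 308 and Bcl2a1d at 138 CPM. The 111 cells of the largest clonotype in replicate 1 had Bcl2 at 351, Bcl2l11 at 133, Bbc3 at 15.3, Bcl2a1b at 410.2 and Bcl2a1d at 169. Both had more Bcl2 and Bcl2l11 and less Bbc3 than the Pdcd1 class of their pool, and less Bcl2a1d. Each is a single clone in a single pool, and no test was made.

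Among other Cd4 cells 2 of 8 members passed against 3.29%, again the A1 genes. Bcl2a1d was at 219.9 and 197 against 146 and 139, a rise of 0.55 (SE 0.09, adjusted p = 0.0219), and Bcl2a1b at 429 and 403 against 293 and 324, a rise of 0.43 (SE 0.09, adjusted p = 0.0471). Bcl2a1d did not pass without control replicate 1 (0.58) or control replicate 2 (0.52). Bcl2a1b did not pass without any single pool (0.36 to 0.51), with stricter gates (0.42) or without expanded clonotypes (0.38). The chronic stimulation list summed to 750.3 and 777 against 401 and 236 in these cells, the naive list of Tcf7, Il7r, Satb1 and Igfbp4 to 697 and 517 against 963 and 958, and Ccl5, a chemokine of experienced T cells, was at 10014 and 11677 against 1839 and 2007. Cells that met the naive gate, in which the A1 genes were low, were 199 of 1972 and 183 of 1941 against 175 of 918 and 174 of 842. In the cells outside the naive gate the A1 levels given above were higher in both Runx1::Runx1t1 pools than in both control pools. That split was not tested, and neither was the part of any of these differences in the result. Bcl2l1 was at 40.3 and 38.0 against 17.3 and 29.5 (log2 change 0.75, SE 0.21, adjusted p = 0.102).

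In the remaining classes no member passed with edgeR. Naive cells had 0 calls against 1.48% of all genes, with 3 members at an unadjusted p under 0.05 and 0 calls by DESeq2. The 3 were Bcl2l11 (53.1 and 51.9 against 43.3 and 40.8), Mcl1 (538 and 508 against 478 and 454) and Bbc3 (98.1 and 87.2 against 80.3 and 64.2), all higher in the Runx1::Runx1t1 group. Memory cells had 0 calls against 4.59%, with 1 unadjusted p under 0.05 (Bbc3, 134 and 117 against 117 and 95.5) and 0 calls by DESeq2. Effector cells had 0 calls against 0.0772%, with 2 unadjusted p under 0.05 and 1 call by DESeq2, Bcl2a1d, at 101 and 111 against 69.4 and 66.5 (0.64, SE 0.10, adjusted p = 0.0877 with edgeR). Foxp3 cells had 0 calls against 0.171%, with 4 unadjusted p under 0.05 and 0 calls by DESeq2. Their largest change was in Bcl2l1, at 70.0 and 71.0 against 39.9 and 34.0 (0.90, SE 0.15, adjusted p = 0.0558), and Bcl2a1d (122 and 109 against 91.1 and 69.5) and Bcl2a1b (342 and 347 against 275 and 245) also lay higher in both pools. Bcl2a1d was thus higher in both Runx1::Runx1t1 pools than in both control pools in effector, Pdcd1, other Cd4, Foxp3 and co-receptor-negative cells. Its pools overlapped in naive and memory cells. The classes of a pool share their mice and library, and how many other genes lay apart in this way was not counted.

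Whether the step from naive to Pdcd1 cells differed between the groups was tested as an interaction. With edgeR 0 of 8 members passed against 3.50% of all genes (117 higher and 264 lower, or 152 and 215 under library-size scaling), with 3 at an unadjusted p under 0.05 and 0 calls by DESeq2. The 3 were Bbc3 (-0.72, SE 0.22, adjusted p = 0.112), Bcl2a1d (0.68, SE 0.25, adjusted p = 0.187) and Bcl2a1b (0.46, SE 0.17, adjusted p = 0.19).

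Among the listed genes Pmaip1 and Myc differed between the groups in several classes. Pmaip1 was higher in the Runx1::Runx1t1 group in naive (0.70, SE 0.13, adjusted p = 0.02), memory (0.35, SE 0.08, adjusted p = 0.045), other Cd4 (0.65, SE 0.12, adjusted p = 0.0345) and co-receptor-negative cells (1.18, SE 0.12, adjusted p = 5.43e-04). It failed in naive cells without Runx1::Runx1t1 replicate 1 (0.66) or control replicate 2 (0.65), in other Cd4 cells without Runx1::Runx1t1 replicate 2 (0.56) or control replicate 2 (0.54), and in memory cells without any single pool (0.30 to 0.40). Myc was lower in Pdcd1 (-1.37, SE 0.18, adjusted p = 0.0134), other Cd4 (-0.52, SE 0.10, adjusted p = 0.0418) and co-receptor-negative cells (-0.45, SE 0.11, adjusted p = 0.0396), and Il7r in naive cells (-0.88, SE 0.19, adjusted p = 0.0332). Myc failed in Pdcd1 cells without control replicate 1 (-1.07), in other Cd4 cells without any single pool (-0.61 to -0.44) and in co-receptor-negative cells without Runx1::Runx1t1 replicate 1 (-0.25) or control replicate 1 (-0.41), and Il7r failed in naive cells without control replicate 2 (-1.0), with DESeq2 (-0.90), with thinned (-0.97) or stricter gates (-0.92) and with the memory gate without Ccl5 (-0.87). Without Runx1::Runx1t1 replicate 1 or 2 Il7r was at -1.41 and -0.52 and passed. Among the other settings, Pmaip1 failed with DESeq2 in naive (0.70) and memory cells (0.36), with stricter gates in naive cells (0.56), in 4 further settings in memory cells (0.33 to 0.48) and without expanded clonotypes in other Cd4 cells (0.55). Myc failed in Pdcd1 cells with thinned (-0.72) or stricter gates (-1.40), in other Cd4 cells with DESeq2 (-0.52) and without expanded clonotypes (-0.35), and in co-receptor-negative cells without expanded clonotypes (-0.41) and under library-size scaling (-0.37). In co-receptor-negative cells Stat5a (0.44, SE 0.09) and Stat5b (0.41, SE 0.08) were also higher and Bmf, a BH3-only gene, lower (-1.63, SE 0.43). Stat5a and Stat5b failed without Runx1::Runx1t1 replicate 1 (0.41 and 0.48) or replicate 2 (0.46 and 0.34), and Bmf without any single pool (-2.09 to -1.14) and in 3 other settings (-1.60 to -1.56). The medians of the 3 lists in that class were 0.08, -0.02 and 0.18 for family, machinery and regulators, beside -0.01 over all genes.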

How the data were processed

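The authors deposited filtered matrices of UMI counts for 4 gene expression libraries, with clonotype tables for 4 T cell receptor libraries. Per the labels these raw counts came from Cell Ranger 6.1.2 on GRCm38, and the annotation release and the strand setting are not given in the sources used here. The clonotype tables were used only to find expanded clonotypes. Barcodes with under 200 genes or over 15% mitochondrial UMIs were removed. Doublets were scored with Scrublet (scanpy 1.11.5, Python 3.11.15, expected rate 0.05). It marked 573 barcodes in Runx1::Runx1t1 replicate 2 and fewer than 0.5% in the other pools, where the top 5% by score were removed.

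T cells had at least 2 UMIs of Cd3d, Cd3e and Cd3g and fewer than 2 of B cell, myeloid, erythroid or progenitor genes. UMIs were summed per class and pool (at least 20 cells) and tested with edgeR 4.0.16 in R 4.3.3 (TMM factors, filterByExpr, quasi-likelihood F test, Benjamini-Hochberg adjustment over all genes tested, threshold 0.05). Class differences came from 1 fit with the pool as a block, group differences from a fit per class without a block, and the interaction from 8 sums with the pool as a block. Levels are CPM of the TMM-scaled total, a scale chosen after seeing that the factors differed between classes, and plain library size is an alternative. The tests were tested on simulated data with known changes.

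The 8 members were tested in every comparison, and some changes that did not pass are not given by value in the text. From 3 lists of related genes, those that passed were named with the 2 largest changes in each direction, and for each member the 3 genes of highest correlation among those with a mean of at least 10 CPM. Some genes of the lists, the naive gate and the nearest genes are not reported here by name, and counts and medians of a list are over the whole list. Members and lists were chosen with earlier results of these data known. Alternatives were DESeq2 1.42.0, no filter on low counts (at least 1 UMI), gates on cells thinned to 2000 UMIs, stricter gates (2 UMIs of Pdcd1 or Foxp3, 3 over the lists), leaving out clonotypes of 10 or more cells, no doublet removal, a stricter cell filter (500 genes, 5% mitochondrial), each pool left out, no pool block and a replicate block. A memory gate without Ccl5 and library-size scaling were added after seeing the data. Intervals of levels (exact Poisson) and shares (Wilson) are at 95% and cover counting error only.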

Additional observations from a re-analysis of the deposited data

Results flagged for a closer look

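In 4 of the 48 pairs of a member and a contrast between classes, both Runx1::Runx1t1 pools moved opposite to both control pools. How often other genes met this rule was not counted, so that these are descriptions only, and some of the changes were small. The difference between the groups was not tested in any of the 4. Bcl2 in Pdcd1 against effector cells changed by 0.07 and 0.29 on the log2 scale in the Runx1::Runx1t1 pools and by -0.23 and -0.54 in the control pools, a difference of 0.56 between the group means. Bax in the same contrast changed by 0.03 and 0.21 against -0.19 and -0.12, a difference of 0.27. Bbc3 in Foxp3 against other Cd4 cells changed by 0.18 and 0.10 against -0.31 and -0.38, a difference of 0.48. Bcl2 in co-receptor-negative against naive Cd8 cells changed by -0.52 and -0.64 against 0.16 and 0.31, a difference of -0.81.

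In the listed genes Il7r and Myc the step from naive to Pdcd1 Cd8 cells differed between the groups by the interaction test (edgeR, adjusted over 10874 genes). Both fell more in the Runx1::Runx1t1 group, with differences of -1.61 (SE 0.32, adjusted p = 0.0227) and -1.57 (SE 0.22, adjusted p = 0.0064). Without control replicate 1 neither passed (-1.42 and -1.25). Il7r also did not pass without expanded clonotypes (-0.65) or with DESeq2 (-1.64) and was at -1.0 without Runx1::Runx1t1 replicate 2, and Myc did not pass with gates on thinned cells (-0.88). The Pdcd1 class held 111 and 118 cells in the control pools, and its chronic stimulation list was lower there, as given above.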

How the results depend on the processing

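Of 39 called changes of members, 14 lost their call in at least 1 alternative, 11 of them without 1 pool, and none of the 39 changed direction. They are named above with their values. Of the 20 changes of members that did not pass but had an unadjusted p under 0.05, 15 passed in at least 1 alternative, 11 of them without 1 pool. Of 91 called changes of listed genes, 45 lost their call, and the direction turned in Cycs in effector cells and Bak1 in Foxp3 cells with gates on thinned cells (-0.012 and -0.015) and, under library-size scaling, in Vdac2 in Pdcd1 (0.21) and co-receptor-negative cells (0.013) and Trp53 in co-receptor-negative cells (0.022). Among changes not called, Mcl1 in Pdcd1 against naive cells turned to 0.25 under library-size scaling and the interaction of Bbc3 to 0.0037 with stricter gates. The causes were not tested.

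The number of members called moved as follows. Between Pdcd1 and effector cells it was 1 without the pool block. Between the groups, with no filter on low counts, it was 1 in naive, 1 in memory, 2 in effector, 2 in Pdcd1, 1 in Foxp3 and 5 in co-receptor-negative cells and 1 for the interaction. With gates on thinned cells it was 1 in naive and 0 in Pdcd1 cells, and with stricter gates or without expanded clonotypes it was 0 in Pdcd1 and 1 in other Cd4 cells. DESeq2 gave 1 in effector cells, and no doublet removal or the stricter cell filter 1 in Foxp3 cells. Leaving out each pool gave 1 to 2 calls between Pdcd1 and effector cells, with 1 without Runx1::Runx1t1 replicate 1. Between the groups it gave 0 to 2 in naive, effector, Pdcd1 and Foxp3 cells, 0 to 3 in other Cd4 cells, 2 to 4 in co-receptor-negative cells and 0 to 1 for the interaction. In Pdcd1 cells 2 members passed without Runx1::Runx1t1 replicate 1 and 0 without control replicate 1 or 2, and in other Cd4 cells 3 passed without Runx1::Runx1t1 replicate 1 and 0 without control replicate 1.

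Replicate numbers are only shared between the groups. The difference between replicates 1 and 2 in 1 group correlated weakly over genes with that in the other. The correlation was 0.14 to 0.36 in the 7 classes, over 9338 to 12325 genes. With the replicate block the members called were 2 in naive, 1 in memory, 2 in effector, 1 in Pdcd1, 3 in other Cd4, 1 in Foxp3 and 5 in co-receptor-negative cells, and all genes called rose from 154 to 527, 566 to 2342, 8 to 308, 355 to 727, 366 to 806, 16 to 126 and 1171 to 1710.

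Counts over all genes depended on the settings too. With no filter they were 363 in naive, 1607 in memory, 793 in effector, 1240 in Pdcd1, 1280 in other Cd4, 38 in Foxp3 and 2044 in co-receptor-negative cells and 869 for the interaction (381 with the filter). With thinned gates they were 777 between Pdcd1 and effector cells (1884 otherwise), 316 in memory, 1 in effector and 0 in Pdcd1 cells and 108 for the interaction. With stricter gates they were 0 in effector, 79 in Pdcd1 and 25 in Foxp3 cells and 219 for the interaction. Without expanded clonotypes they were 1218 between Pdcd1 and effector cells, 52, 128, 114 and 34 in effector, Pdcd1, other Cd4 and Foxp3 cells and 116 for the interaction. DESeq2 gave 91, 103 and 56 in naive, effector and Foxp3 cells and 214 for the interaction, no doublet removal 35, 207 and 101 in effector, Pdcd1 and Foxp3 cells, and in Foxp3 cells the stricter cell filter gave 35 and library-size scaling 31. No pool block gave 843 between Pdcd1 and effector cells. Between the groups, leaving out each pool gave 31 (without control replicate 2) to 308 (without control replicate 1) in naive cells, 287 (without Runx1::Runx1t1 replicate 2) to 717 (without control replicate 2) in memory, 0 (without control replicate 1) to 601 (without Runx1::Runx1t1 replicate 1) in effector, 0 to 1064 (the same pools) in Pdcd1, 181 to 599 (the same pools) in other Cd4, 5 (without Runx1::Runx1t1 replicate 2) to 410 (without control replicate 1) in Foxp3 and 415 (without Runx1::Runx1t1 replicate 2) to 956 (without control replicate 2) in co-receptor-negative cells, and 57 to 978 (without control replicate 1 and Runx1::Runx1t1 replicate 1) for the interaction. The shares of all genes called in the report move with these counts. In the control pools the Pdcd1 class rested on 111 and 118 cells, which limits what it can show.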
